A study of Homo sapiens with 30 samples.

Results

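Cluster 8 is a set of 2823 regions, each 500 bp wide, out of 22974 regions (12.3%) that the authors sorted into 9 clusters of wild-type ATAC-seq peaks. Its members are all regions of the deposited cluster numbered 8 by its file name; the same file carries the number 7 inside, and the number of the file name is used here. ATAC-seq reads open chromatin by letting a transposase insert sequencing adapters into accessible DNA. The samples are HUES8 cells, an established human embryonic stem cell line, either carrying an HNF6 knockout or wild type (called control here), taken towards pancreas in culture. Per the labels there are 30 samples in 10 groups of 3, the knockout and the control at each of 5 stages. ESC are the undifferentiated cells, DE is definitive endoderm, GT the gut tube, PE pancreatic endoderm and PP the pancreatic progenitor stage. The sources used here give neither the number of knockout clones nor the edit itself. Nothing in the labels tells whether a group's 3 samples came from separate cultures, so their spread may be technical only.

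HNF6, also called ONECUT1, is a transcription factor with a cut domain and a homeodomain that is expressed in the developing liver, bile ducts and pancreas. In the mouse it acts early in the pancreatic bud and again when endocrine precursors form. As cells pass from gut tube to pancreatic endoderm and on to progenitors, distal enhancers of pancreatic genes open and those of earlier fates close, and ATAC-seq peaks mark both steps. A region that loses accessibility in a knockout may be bound by the missing factor or lie further down the chain of events, and accessibility does not tell these apart.

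Each cluster region was compared with 10 lists of differential regions deposited by the authors, 1 per genotype and stage. The regions of a knockout list had the higher values in knockout cells and those of a control list in control cells. A cluster region was counted as listed if a list region overlapped it by 1 bp or more. For each region the lists carry 3 values per genotype, a log2 ratio and a -log10 p, never under 5, all from the authors. The 2 sets of values have no names in the files; the first was read as knockout and the second as control because the first has the higher mean in every region of the knockout lists and the second in every region of the control lists. The sources used here do not give depth or scaling of the libraries, so the precision behind each value is unknown. No gene names or sequences are attached to the regions, since no hg19 annotation or sequence was used.

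One set of values stands apart in the regions on cluster 8. At PE the third control value was 1.24 times the mean of the other two control values at the median over 598 listed regions on cluster 8, against 1.05 times over all 12677 listed PE regions. The corresponding ratio of the third knockout value at PE was 0.94 on cluster 8 and 1.00 over all listed regions. Cluster 4 had the same lean of the third control value (1.25). Without it, a choice made after seeing the data, sizes, levels and counts of separated regions at PE are given below. Its part in which regions the authors listed at PE was not tested.

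The members of cluster 8 differed between genotypes chiefly at the PE and PP stages. At PE, 109 members were in the knockout list (3.86%) and 519 in the control list (18.4%, 95% Wilson interval 17.0 to 19.9). Over all 22974 cluster regions the background was 3.97% for the knockout PE list and 6.44% for the control PE list. At PP, 429 members were in the knockout list (15.2%, interval 13.9 to 16.6) and 175 in the control list (6.20%, interval 5.37 to 7.15), against backgrounds of 11.1% and 2.47%. Of the 9 clusters, cluster 8 had the highest share in the control PE list, ahead of cluster 4 (16.4%), and the third highest in the control PP list, behind clusters 5 (23.9%) and 6 (7.60%). In the knockout PP list its share was also the highest, but clusters 7 (14.6%) and 3 (14.5%) lay within its interval. In bulk samples, fewer cells with an open region and a less open region per cell cannot be told apart.

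At the 3 earlier stages the members were seldom listed, and mostly as higher in the knockout. At ESC, 109 members were in the knockout list (3.86%, background 3.73%) and 39 in the control list (1.38%, background 5.38%). At DE the numbers were 132 in the knockout list (4.68%, background 5.69%) and 43 in the control list (1.52%, background 4.99%). At GT they were 75 in the knockout list (2.66%, background 1.86%) and 24 in the control list (0.85%, background 2.49%). In the knockout lists of these stages the share of cluster 8 was close to the background at ESC, below it at DE and above it at GT. In all 3 control lists it was below the background. The Wilson intervals of the control lists, 1.01 to 1.88 at ESC, 1.13 to 2.05 at DE and 0.57 to 1.26 at GT, did not reach it, though they cover counting error only and regions are not replicates. Low shares in these lists were not particular to cluster 8: cluster 4 had 1.15% at ESC, 1.19% at DE and 0.85% at GT. The highest shares were 18.6% in cluster 1 at ESC, 11.7% in cluster 9 at DE and 6.66% in cluster 3 at GT.

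**Figure D1:**
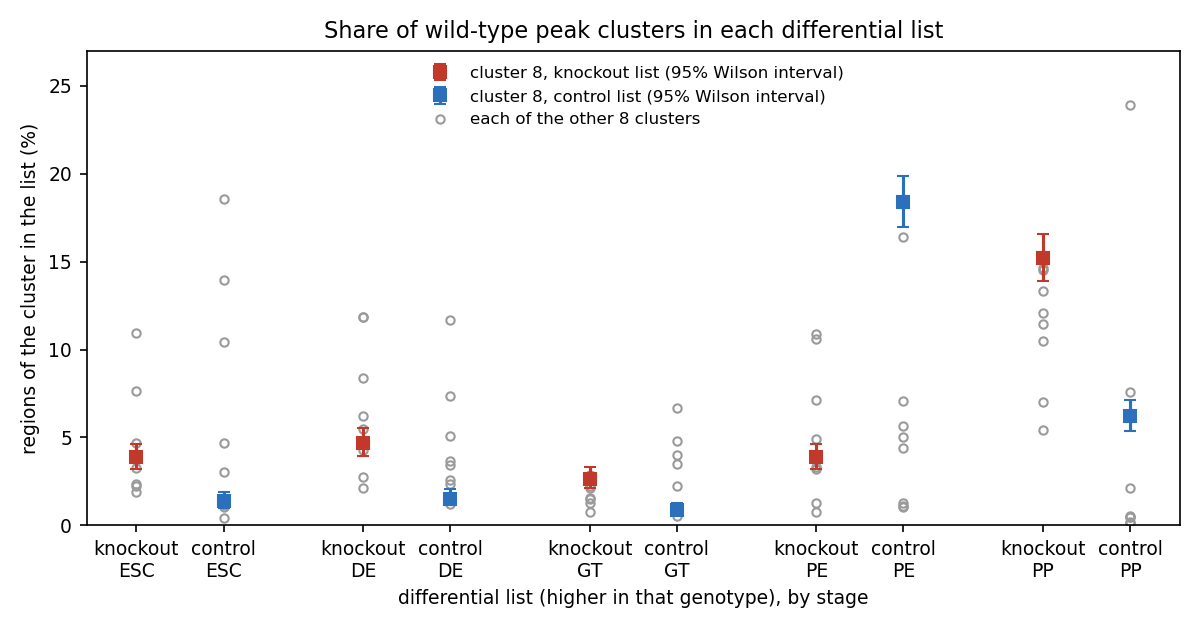
Share of each cluster's regions (y axis, percent) that lay in each of the 10 differential lists (x axis, by stage, knockout list left of control list). Squares are cluster 8 with its 95% Wilson interval and open circles the other 8 clusters; cluster 8 is the highest in the control PE list (18.4%, next 16.4%), while in the knockout PP list (15.2%) other clusters lie within its interval.

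The balance of the listed members differed between stages. Counting members in a single list of a stage, the control share was 26.4% at ESC, 24.6% at DE, 24.2% at GT, 82.6% at PE and 28.8% at PP. For the other 8 clusters together it was 61.6%, 48.4%, 60.9%, 54.5% and 15.6% at the same stages. Single clusters differed from this pool: at ESC, DE and GT cluster 4 had 33.7%, 21.8% and 40.4%. Cluster 5 had 37.9%, 45.0% and 51.6% at these stages, and cluster 6 had 48.7%, 16.2% and 58.3%. Cluster 4 matched cluster 8 at PE with 83.6% but had 1.37% at PP, while cluster 5 had 28.8% at PE and 67.7% at PP. The PP balance depends on the lengths of the lists, 24770 regions in the knockout list and 3169 in the control list. With every list cut to the 2789 strongest regions by the authors' p, the length of the shortest list, the control share of cluster 8 at PP was 55.2%, against 47.0% for the other clusters.

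Taken over all lists, 1334 members (47.3%) were in at least 1 list, against 37.1% of the other clusters' regions, and 1489 members were in none. A total of 1041 members were in 1 list, 267 in 2, 25 in 3 and 1 in 4. The lists hold differences between genotypes, so the 1489 unlisted members carry no values in the files.

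The level in control cells at listed members was highest at PE. Across listed regions on cluster 8, the median value per 100 bp was 40.5 in knockout and 35.2 in control cells at ESC, 30.1 and 23.5 at DE, and 26.4 and 18.5 at GT. At PE it was 45.9 in knockout and 65.2 in control cells, the control level being 60.5 without the third control value, and at PP 46.6 and 37.3. Among the 9 clusters, the control level of cluster 8 ranked 5th at ESC, 7th at DE, 6th at GT, 2nd at PE and 3rd at PP, with cluster 6 above it at both late stages and cluster 5 above it at PP. Over all listed regions the control median was 34.4 at PE and 12.3 at PP. These levels describe listed regions only, their mix of knockout-higher and control-higher regions differs by stage, and values of different stages may be scaled differently; no test was made between stages.

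**Figure D2:**
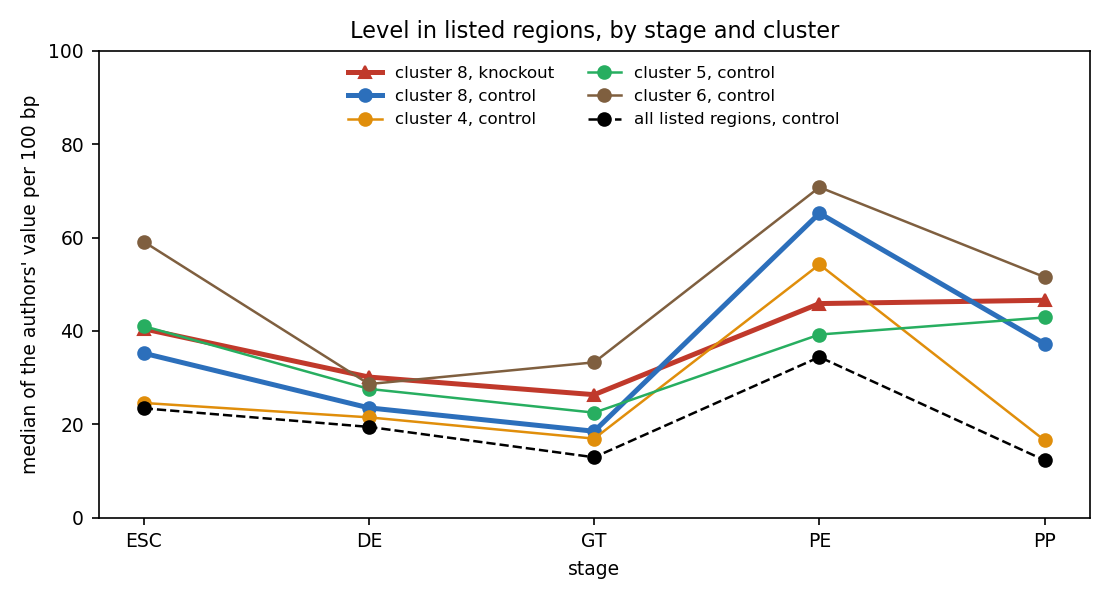
Median of the authors' value per 100 bp (y axis) in listed regions at each stage (x axis), for cluster 8 in knockout and control cells and for clusters 4, 5 and 6 and all listed regions in control cells. The control line of cluster 8 is 65.2 at PE, above its knockout line at 45.9, and lies below its knockout line at each other stage.

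On cluster 8 the differences were smaller than over the whole lists, with lower p-values from the authors. Ratios here are given as log2 of knockout over control, from the means of the 3 values with 1 added to each, which is the deposited ratio with its sign turned. In the control PE list the median over the 491 list regions on cluster 8 was -0.59, against -0.94 over the whole list of 7111. Their median -log10 p was 9.28, against 6.58 over the whole list, and 78.0% of them lay above the list's median. Values were also higher there: the median was 457 in knockout and 706 in control cells on cluster 8, against 127 in knockout and 247 in control cells over the whole list. A difference of at least 2-fold was present in 72 of the 491 regions (14.7%), against 14.1% of the list regions on other clusters and 45.7% of the list. The list regions on cluster 8 had a median width of 1100 bp, those on other clusters 1000 bp and the list 650 bp. On the other clusters the median -log10 p was 6.96 and the median value 328 in knockout and 518 in control cells.

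In the control PP list the median log2 ratio was -0.64 over 171 regions on cluster 8, against -0.85 over the list, with a median -log10 p of 7.70 against 6.44. In the knockout PP list it was 0.66 over 409 regions against 1.08 over the list, with a median -log10 p of 7.77 against 6.49. In the knockout PE list it was 0.42 over 107 regions against 0.61 over the list, and 0 of the 107 reached 2-fold. At the earlier stages the medians on cluster 8 were 0.59 in the knockout list and -0.62 in the control list at ESC, 0.57 and -0.78 at DE, and 0.77 and -0.57 at GT. In every one of the 10 lists the median size on cluster 8 was smaller than over the whole list, and the same was true of list regions on the other clusters. In the control PP list the median -log10 p on the other clusters was 7.84, above that on cluster 8. In the knockout PP list it was 6.96, below that on cluster 8.

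In most list regions on cluster 8 the values of the genotypes were separated. In the control PE list the 3 knockout values lay below all 3 control values in 367 of 491 regions (74.7%, background 79.5%). In the control PP list this held for 147 of 171 (86.0%, background 82.5%), and in the knockout PP list the knockout values were all higher in 315 of 409 (77.0%, background 79.4%). The knockout PE list was the low one, with 59 of 107 (55.1%, background 74.9%). With the third control value at PE left out, 93 of those 107 regions (86.9%, background 83.6%) and 368 of the 491 control PE regions (74.9%, background 83.4%) were separated; with fewer values a region can only gain separation. Without it the median log2 ratio was 0.52 in the knockout PE list and -0.48 in the control PE list, with no change of sign. In the earlier knockout lists the groups did not overlap in 80 of 106 regions at ESC (75.5%, background 77.7%), 102 of 129 at DE (79.1%, background 76.1%) and 56 of 73 at GT (76.7%, background 82.5%). In the earlier control lists this held for 32 of 38 at ESC (84.2%, background 73.9%), 28 of 43 at DE (65.1%, background 79.9%) and 20 of 23 at GT (87.0%, background 82.7%). For 1 region, 3 values a genotype allow no two-sided exact permutation p under 0.1, which is the value of every region named here whose groups do not overlap.

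**Figure D3:**
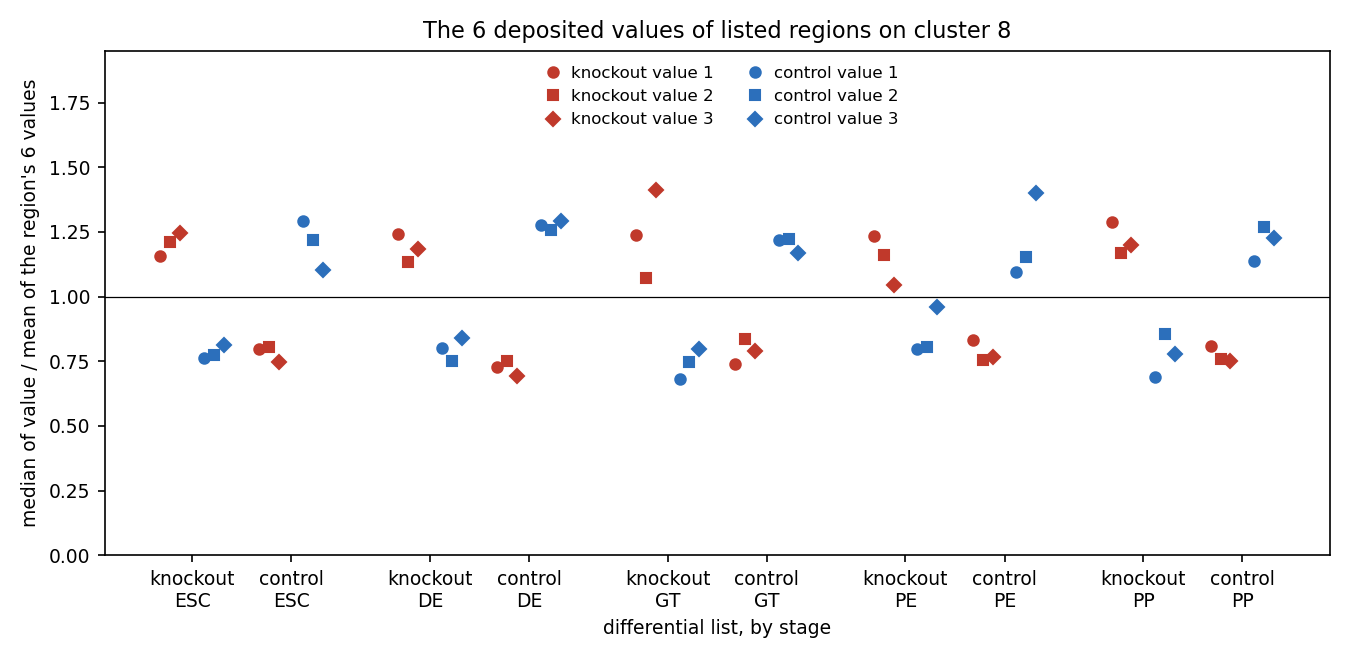
For the list regions on cluster 8, the median over regions of each deposited value divided by the mean of the region's 6 values (y axis), for each differential list (x axis), with knockout values left of control values. The third control value at PE is 1.40 in the control PE list and 0.96 in the knockout PE list, above the other control values in both.

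The 3 leading list regions higher in control at PE had log2 ratios between -1.04 and -1.59. The region on chromosome 20 at 17316891 to 17317390 (hg19, as all positions here) lies in the list region with the lowest p on cluster 8, chr20:17316851-17317900. In the authors' deposited table it had 245, 354 and 415 in knockout cells, against 903, 790 and 1258 in controls, a log2 ratio of -1.54. The chromosome 2 member at 4138454 to 4138953 had 332, 220 and 252 in knockout cells, against 732, 797 and 901 in controls, per the authors' deposited table (-1.59). The groups did not overlap in either region. On chromosome 11, the list region from 115588501 to 115589800 covers 2 members of cluster 8, the first at 115588420 to 115588919. The authors' deposited table gives 832, 622 and 752 in knockout cells, against 1452, 1240 and 1858 in controls (-1.04), again with no overlap.

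These 3 regions were also in the control PP list, with ratios closer to 0 on chromosomes 20 and 2. In the authors' deposited table of PP the chromosome 20 region had 312, 311 and 228 in knockout cells, against 665, 417 and 385 in controls (-0.78). The chromosome 2 region had 412, 299 and 301 in knockout cells, against 470, 622 and 607 in controls (-0.75) in the authors' deposited table, and the chromosome 11 region had 546, 346 and 160 in knockout cells, against 674, 885 and 743 in controls (-1.13). The knockout values were below all control values in each.

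Members shared by the control lists of both pancreatic stages numbered 61, which is 11.8% of the members in the control PE list and 34.9% of those in the control PP list. Over all clusters these shares were 6.15% and 16.0%. In all, 91 regions were in both (background 0.396%), so that cluster 8, with 12.3% of the cluster regions, held 67.0% of them. The 2.16% of cluster 8 in both compares with 0.15% of the other clusters' regions. The 61 lay on 19 chromosomes. Their median log2 ratio was -0.65 at PE and -0.78 at PP, and the ratio was larger in size at PP in 37 of them. In 43 of the 61 the knockout values lay below all control values at both stages, against a background of 72.5% over all 91. The 91 include the 61, so these shares are not independent. Lists of different stages share no libraries.

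The next of these members by the p at PE lay on chromosomes 14 and 12. The chromosome 14 member, 76719401 to 76719900, had 254, 103 and 156 in knockout cells, against 505, 687 and 625 in controls at PE (-1.82), in the authors' deposited table. At PP it had 211, 195 and 169 in knockout cells, against 335, 308 and 259 in controls (-0.65), in the authors' deposited table. The chromosome 12 member, 110144668 to 110145167, had 376, 191 and 283 in knockout cells, against 561, 790 and 959 in controls at PE (-1.44), and 123, 114 and 85 in knockout cells, against 232, 271 and 280 in controls at PP (-1.27), in the authors' deposited table. The ratio on chromosome 14 was closer to 0 at PP than at PE, and that on chromosome 12 was similar at both stages.

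**Figure D4:**
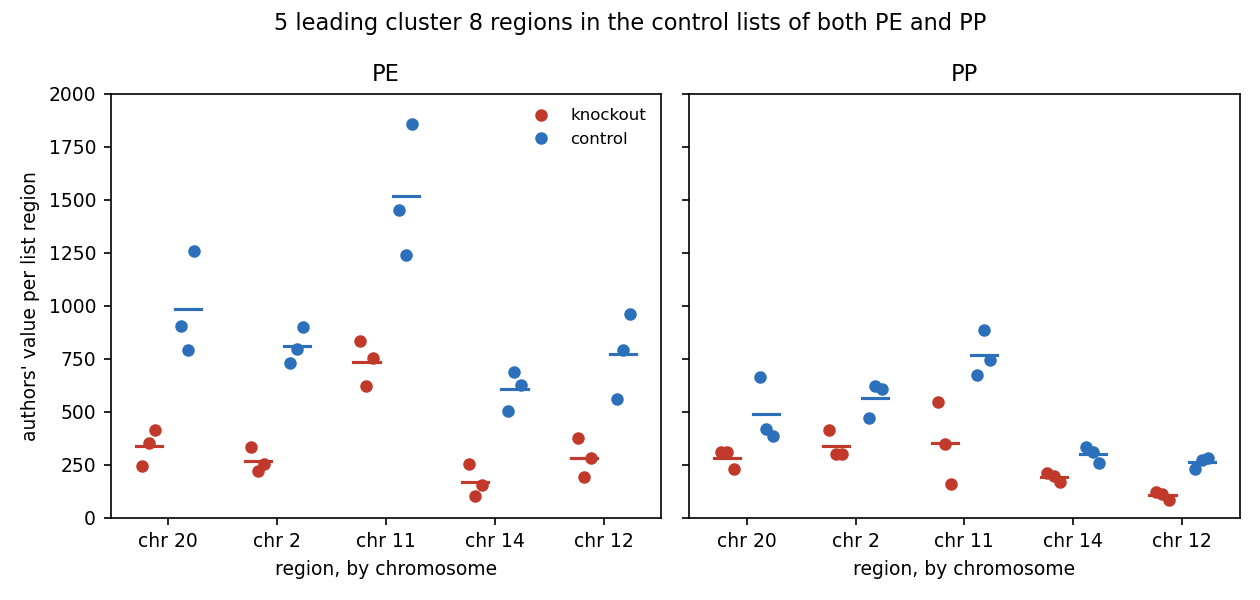
The authors' values (y axis) in the list regions of the 5 members with the lowest p at PE among those in the control lists of both PE and PP (x axis, by chromosome), at PE on the left and PP on the right. Points are the 3 values of each genotype and bars their means; knockout values lie below all control values in each of the 5 regions at both stages, for example means of 338 in knockout and 984 in control cells on chromosome 20 at PE.

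Of the 519 control-higher members at PE, 430 (82.9%) were in no PP list, against 78.7% of all members and 86.8% of all cluster regions in the control PE list. A further 61 were higher in control again and 28 (5.39%) were higher in the knockout. At PE the members higher in control at both stages had a median log2 ratio of -0.65, those higher in the knockout at PP -0.58 and those in no PP list -0.59. In the same order the median -log10 p at PE was 13.7, 7.51 and 9.18. The median value at PE was 536 in knockout and 892 in control cells for the first set, 443 and 673 for those higher in the knockout at PP, and 470 and 711 for those in no PP list. Before PE, 36 of the 519 (6.94%) had been in any of the 6 lists of ESC, DE and GT, against 13.6% of all members. Of the 175 control-higher members at PP, 29 (16.6%) had been in an earlier list before PE. These shares were not computed over all clusters.

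A second group was higher in the knockout at both stages. It held 36 members, 1.28% of cluster 8 (background 0.884%). They are 33.0% of the members in the knockout PE list and 8.39% of those in the knockout PP list, against 22.3% and 7.95% over all clusters. Their median log2 ratio was 0.44 at PE and 0.57 at PP, and 31 of the 36 had the larger difference at PP. No member was higher in the knockout at PE and higher in control at PP, where 19 regions of the other clusters were (background 0.0827%). This was not particular to cluster 8, which ranked 5th of the 9 clusters with its 0, since other clusters had none either. Among the members in the knockout PE list, 34 of 109 (31.2%) had been listed at ESC, DE or GT, above the shares in the control PE, knockout PP (17.2%) and control PP lists. This joint share was not computed over all clusters, so it is not shown to be particular to cluster 8. For single earlier lists, the share was mostly below that of all cluster regions in the knockout PE list, for example 8.26% against 9.88% for knockout ESC. The exception was knockout GT, with 5.50% against 3.62%.

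The strongest member of the knockout PP list was on chromosome 2 at 119670671 to 119671170, inside a list region with 730, 519 and 747 in knockout cells, against 130, 256 and 133 in controls, per the authors' deposited table (1.94). It was in the knockout PE list as well. The second list region, chr17:57920801-57924650, covers 2 members and had 2325, 3119 and 2705 in knockout cells, against 1531, 1927 and 1716 in controls, per the authors' deposited table (0.66). The chromosome 5 member at 93698145 to 93698644 had 942, 815 and 686 in knockout cells, against 411, 379 and 242 in controls at PP in the authors' deposited table (1.24), and was higher in control at DE. All 3 separated the genotypes.

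The first 2 regions of the control PP list were in no PE list. The member on chromosome 5 at 143890769 to 143891268 had 628, 552 and 547 in knockout cells, against 1033, 1254 and 1133 in controls, per the authors' deposited table (-0.98). The member on chromosome 1 at 3236979 to 3237478 had 831, 912 and 752 in knockout cells, against 1207, 1715 and 1464 in controls, per the authors' deposited table (-0.81). Neither pair of groups overlapped.

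In the knockout PE list the leading member lay on chromosome 9 at 127421463 to 127421962, with 1979, 1625 and 1644 in knockout cells, against 1056, 942 and 1377 in controls, per the authors' deposited table (0.64). The next, on chromosome 20 at 46486242 to 46486741, had 1673, 1556 and 1630 in knockout cells, against 953, 1101 and 1358 in controls, per the authors' deposited table (0.51). Both were also in the knockout PP list, and in both the third control value was the highest of the control values. The list region chr19:41829751-41832700 had 2365, 2245 and 1678 in knockout cells, against 1557, 1412 and 1689 in controls, per the authors' deposited table (0.43), with 1 knockout value inside the control range. Its member at 41829355 to 41829854 lies mostly before the start of that list region and was also in the control ESC list.

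**Figure D5:**
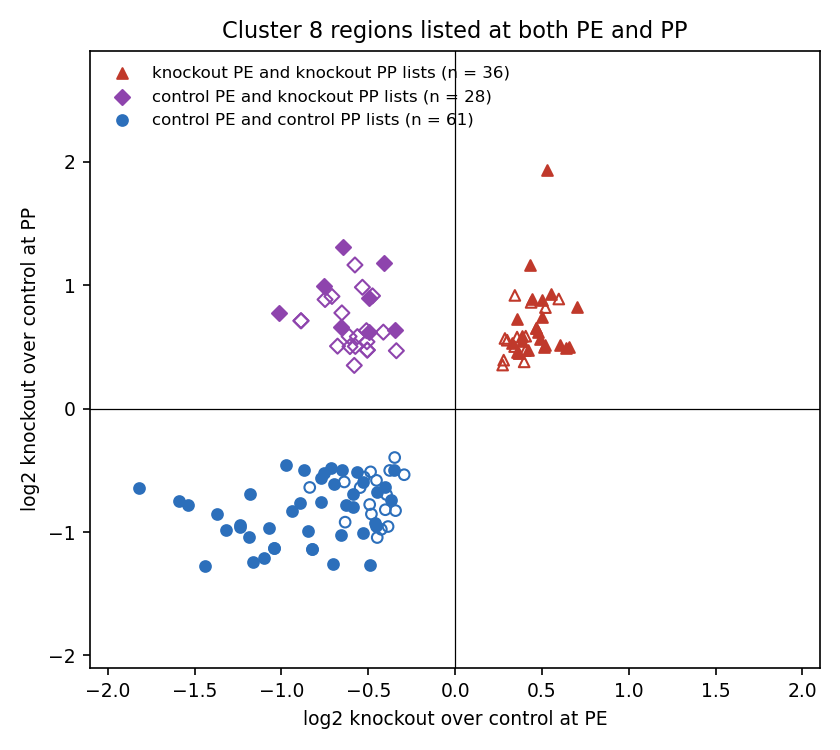
Log2 knockout over control at PE (x axis) and at PP (y axis) for the 125 members listed at both stages in these combinations, 36 higher in the knockout at both, 28 higher in control at PE and in the knockout at PP, and 61 higher in control at both. Filled symbols mark members whose knockout and control values do not overlap at either stage, and no symbol lies right of 0 and below 0. Over all cluster regions, 0.0827% were in the knockout PE and control PP lists.

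The 28 members higher in control at PE and higher in the knockout at PP lay on 9 chromosomes and are 0.99% of cluster 8 (background 0.457%). They are 5.39% of the control PE members and 6.53% of the knockout PP members, against 7.09% and 4.11% over all clusters. Of all members of cluster 8, 15.2% were in the knockout PP list and 18.4% in the control PE list. Both of these single shares were above those over all clusters. Their median log2 ratio was -0.58 at PE and 0.65 at PP. Both differences were free of overlap in 8 of the 28, against 56.2% of all 105 such cluster regions, the 28 among them. With at least 250 bp of the member inside the list region 18 were left. The member with the lowest p at PE, on chromosome 6 at 8195002 to 8195501, had 434, 434 and 706 in knockout cells, against 899, 782 and 1233 in controls at PE in the authors' deposited table (-0.89). At PP it had 342, 122 and 298 in knockout cells, against 179, 184 and 101 in controls, per the authors' deposited table (0.71), with 1 knockout value within the control range. The chromosome 5 member at 38648860 to 38649359 had 697, 557 and 813 in knockout cells, against 798, 1326 and 1257 in controls at PE (-0.71), and 233, 153 and 227 in knockout cells, against 80, 158 and 87 in controls at PP (0.91), in the authors' deposited table. Its groups overlapped at both stages.

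At ESC the leading regions had log2 ratios between 0.46 and 0.67 in the knockout list and between -0.68 and -0.84 in the control list. In the knockout ESC list the member on chromosome 6 at 12011175 to 12011674 had 1811, 1989 and 1886 in knockout cells, against 1245, 1238 and 1416 in controls, per the authors' deposited table (0.54). Next came members on chromosome 6 at 17281231 to 17281730 (0.67) and chromosome 4 at 184425478 to 184425977 (0.46). In the control ESC list the member on chromosome 6 at 43894624 to 43895123 led, with 369, 313 and 498 in knockout cells, against 683, 844 and 587 in controls, per the authors' deposited table (-0.84). The next, on chromosome 15 at 40399734 to 40400233 (-0.75) and chromosome 16 at 85456144 to 85456643 (-0.68), were both higher in the knockout at DE. None of these 6 regions had overlapping groups.

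In the knockout DE list the member on chromosome 22 at 28066323 to 28066822 had 1344, 1070 and 1109 in knockout cells, against 675, 522 and 719 in controls, per the authors' deposited table (0.88), and it was higher in control at PP. Next came chromosome 22 at 36725393 to 36725892 (0.65) and chromosome 17 at 79313054 to 79313553 (0.64), a member that was also higher in the knockout at GT (0.53, groups overlapping) and at PP. In the control DE list the strongest region without overlap was on chromosome 18, where the member at 55464409 to 55464908 had 62, 41 and 83 in knockout cells, against 127, 214 and 215 in controls, per the authors' deposited table (-1.56). The top region of that list, with the member at 77793881 to 77794380 on the same chromosome, had 304, 730 and 442 in knockout cells, against 999, 698 and 645 in controls, per the authors' deposited table (-0.66), with overlapping groups. The third region of the control DE list held a member on chromosome 2 at 217471276 to 217471775 (-0.74).

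At GT the knockout list was led by chromosome 14 at 94265861 to 94266360, with 261, 174 and 224 in knockout cells, against 121, 35 and 52 in controls, per the authors' deposited table (1.65), also higher in the knockout at PP. Next came chromosome 17 at 1639421 to 1639920 (0.57). The control GT list was led by chromosome 7 at 73157181 to 73157680, with 920, 1091 and 1101 in knockout cells, against 1274, 1680 and 1408 in controls, per the authors' deposited table (-0.49). The next members were on chromosome 6 at 88876230 to 88876729 (-0.65) and chromosome 22 at 41128635 to 41129134 (-1.29), and the chromosome 22 member was also higher in control at PE.

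The late differences were spread over the autosomes. In the control PE list the share of cluster 8 exceeded that of the other clusters on 22 of 22 autosomes, with a range of 7.04% on chromosome 4 to 32.9% on chromosome 18 and a median of 17.8%. It did so on 21 of 22 autosomes in the knockout PP list and on 21 of 22 in the control PP list. Control-higher members outnumbered knockout-higher ones at PE on all 22 autosomes, the control share running from 61.5% to 100%. At PP knockout-higher members were the more numerous on 19 autosomes, control-higher ones on 2, and 1 was tied. This PP balance depends on the lengths of the lists, as stated above. The other clusters together had a control share of 15.6% at PP. At ESC, 24 of the 109 knockout-higher members were on chromosome 6, which is 11.2% of its members, against 7.46% of the other clusters' regions there. At DE, 23.5% of the members on chromosome 22 were higher in the knockout, against 25.6% of the other clusters' regions. Of the 43 control-higher members at DE, 10 were on chromosome 5, which is 7.75% of its members, against 11.3% of the other clusters' regions there. The part of these chromosomes in the early counts was not tested.

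Members were spread over 22 autosomes and chromosome X in other proportions than the remaining clusters. Chromosome 17 held 6.80% of cluster 8 and 4.18% of all other cluster regions, chromosome 6 held 7.62% and 5.19%, and chromosome 12 held 5.56% and 3.97%. At the other end were chromosome 4 with 2.52% and 4.08% and chromosome 19 with 2.87% and 4.39%. Only 6 members lay on chromosome X.

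About 1 in 5 cluster 8 regions had another within 10 kb. The median gap between successive members was 320770 bp, and 581 members (20.6%) had another member within 10 kb; the shares of clusters 4, 5 and 6 were 16.8%, 14.0% and 28.5%. Regions of cluster 4 lay within 10 kb of 308 members (10.9%), those of cluster 6 of 212 and those of cluster 9, the largest cluster with 4707 regions, of 138. Per 1000 regions of the neighbouring cluster this is 114 for cluster 4, 127 for cluster 6, 106 for cluster 5 and between 23.5 and 56.8 for the other 5 clusters.

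Of 315 pairs of successive members within 10 kb, 36 (11.4%) had both members in the control PE list, 29 of them inside 1 list region, and 59 had one of them. In the other 8 clusters 53 of 2212 such pairs had both regions in that list. Among pairs with a listed region, both were listed in 37.9% on cluster 8 and in 32.3% on the other clusters. In the knockout PP list 25 pairs (7.94%) were listed together, against 5.29% in the other clusters, and in the control PP list 9 (2.86%), against 0.90%. Counted only over pairs with a listed region, the control PP shares were similar, 25.7% on cluster 8 and 24.7% on the other clusters. For the knockout PP list they were 38.5% and 29.25%. Neighbouring members inside 1 list region share their values and are not separate observations. With 1 region per cluster and 100 kb block the share of cluster 8 was 18.4% in the control PE list, from 2240 regions.

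The longest runs of members, with at most 10 kb between neighbours, held 5 regions each, and there were 5 of them. The 3 shortest differed in how they fared. On chromosome 6, from 33595538 to 33603674, all 5 regions were in at least 1 list, 3 in the knockout PE and 2 in the knockout PP list. On chromosome 17, from 2075359 to 2085210, 3 regions were in no list, 1 was higher in the knockout at GT and 1 higher in control at PE. On chromosome 13, from 28483699 to 28494378, 4 of the 5 regions were in no list and 1 was higher in control at PP.

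In most overlapping pairs the control PE list region covered the member whole. The whole 500 bp of the member lay inside the list region in 78.3% of the pairs in the control PE list, with a median distance between centres of 138.5 bp. In the control PP list the share was 47.4% with a median distance of 105 bp; its regions on cluster 8 had a median width of 700 bp against 1100 bp at PE. In the knockout PP list it was 65.8% and 187 bp.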

How the data were processed

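ATAC-seq of HUES8 cells was deposited as region lists without headers. The submitters' processing notes name Bowtie2, MACS2 and hg19. The sources used here do not give versions, roles, pooling or the tools behind the clusters and differential calls. The cluster files hold positions. The differential lists hold positions, 2 sets of 3 whole numbers of scaling unknown here, a -log10 p, and a log2 ratio of control over knockout that the authors deposited and that equals the log2 ratio of the set means with 1 added to each (largest difference 5e-12). No count model was run, and no test was made between clusters: counts, shares, Wilson intervals (counting error only) and backgrounds are given, with exact permutation tests of single regions. Listed regions were selected for a difference, so their separation is not a test.

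Overlaps and medians were computed with Python 3.11.15, NumPy 2.4.6, pandas 2.3.3 and SciPy 1.17.1; the overlap code was tested on simulated lists. The regions named are, for each list, the 3 with the highest -log10 p, that is the lowest p, on cluster 8, the 5 leading members in the control lists of both PE and PP, the 3 leading members in the control PE and knockout PP lists (the second is given with the additional observations), and the 3 shortest of the longest runs. The members and lists were chosen with earlier results of these data known. Planned gene and motif comparisons needed hg19 annotation or sequence and were not made. The highest region number in the lists of a stage ran from 330994 at PE to 876159 at GT. If these numbers count candidate regions, which the sources used here do not state, they are lower bounds. Candidate sets may thus have differed between stages.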

Additional observations from a re-analysis of the deposited data

Results flagged for a closer look

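Among the 28 members higher in control at PE and higher in the knockout at PP, knockout and control values were free of overlap at PE and at PP in 8. This is a lower share than the 56.2% of all 105 cluster regions in both lists, which include the 28. In the list regions on these 8, all values differed one way at PE and the other way at PP. The difference between stages was not tested. The leading member was on chromosome 11 at 59643557 to 59644056. In the list region at PE (59643401 to 59644750) it had 355, 197 and 415 in knockout cells, against 621, 584 and 752 in controls, per the authors' deposited table, a log2 ratio of -1.01. In the list region at PP (59642851 to 59643700) it had 265, 390 and 224 in knockout cells, against 143, 183 and 186 in controls, per the authors' deposited table, a log2 ratio of 0.78. The list regions of the 2 stages overlap only in part.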

How the results depend on the processing

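Of 174 values recomputed under other settings, 27 moved and 1 reversed; the other 146 stayed within 1.5 times (shares, counts), the Wilson interval (control shares) or 1 SD between values (sizes, levels). The one that reversed was the control share of listed members at PP, 55.2% with every list cut to the shortest. Under that setting the control share at GT was 40.7%, and the shares of cluster 8, with those of the other clusters after them, were 1.59% and 1.26% (knockout ESC), 0.57% and 2.72% (control ESC), 1.77% and 2.05% (knockout DE), 0.78% and 2.97% (control DE), 1.24% and 0.72% (knockout GT), 2.41% and 2.45% (knockout PE), 12.8% and 2.38% (control PE), and 4.57% and 2.08% (knockout PP). In the upper part of each list by p cluster 8 had 14.5% (control PE) and 10.5% (knockout PP), against 2.84% and 6.51% in the other clusters. Its other shares that moved there were 0.92% (control ESC), 3.05% (knockout DE), 0.92% (control DE), 1.49% (knockout GT) and 2.41% (knockout PE), by construction from shorter lists, with a control share of 85.7% at PE and with 22, 11 and 36 members in the knockout PE and knockout PP, control PE and knockout PP, and control PE and control PP lists. With regions whose values do not overlap, the control DE share was 0.99%, the knockout PE share 2.13%, the control share at PE 86.5%, and the first 2 combinations had 22 and 8 members. With at least 250 bp shared, or the centre inside, 18 members were in the control PE and knockout PP lists. A neighbour within 50 kb was found for 37.9% of members. The median log2 ratio in the control DE list was -0.91 in the upper part of the list, and between -0.89 and -0.76 when single values were left out. In 60 of 60 such values over all lists the sign held; in the control PE list they ran from -0.67 to -0.48 and in the knockout PE list from 0.36 to 0.52. The causes were not tested. No paired analysis was possible because the values in the lists carry no replicate number. Depth is unknown, so unlisted members cannot be told from members too shallow to be called.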
